A study of Homo sapiens with 6 samples.

Results

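The 10 genes described here build the nuclear lamina and the bridge between the nucleus and the cytoskeleton: LMNA, LMNB1, LMNB2, SYNE1, SYNE2, SUN1, SUN2, EMD, LBR and TMPO. They were chosen by function and matched to the count tables through their Ensembl gene IDs. All 10 were found among the 58302 IDs, and all 10 passed the filter on low counts, as did 18836 genes in all. RNA was sequenced from A375, a human melanoma cell line. Cells stably carrying an empty vector (3 libraries) were compared with cells stably overexpressing HMGB2 (3 libraries), a DNA-bending chromatin protein, and the study asked what raised HMGB2 does to melanoma cells in culture. The lines came from lentiviral transduction, and the study's reporting form calls the replicates of each group technical, so SDs and p-values cover only the spread between these libraries and not independent transductions.

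The nuclear lamina is a meshwork of intermediate filaments under the inner nuclear membrane, built from A-type lamins (lamin A and lamin C, splice forms of LMNA) and B-type lamins (LMNB1 and LMNB2). SUN proteins span the inner membrane and hold nesprins, encoded by SYNE1 and SYNE2, in the outer membrane, and this LINC complex passes force from the cytoskeleton to the lamina. Emerin (EMD), the lamin B receptor (LBR) and the LAP2 proteins (TMPO) anchor the lamina and chromatin to the inner membrane, and the A-type to B-type lamin balance is known to track how stiff a nucleus is.

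Each library held between 45925053 and 56755212 reads assigned to genes. HMGB2 itself read 7250, 7729 and 7562 normalized counts (reads divided by the DESeq2 size factor of the library) with the empty vector and 15095, 16848 and 14609 with overexpression, a 2.07-fold rise (log2 fold change 1.05, SE 0.10, DESeq2 adjusted p = 4.4e-22). Of 12 melanoma lineage markers, 8 averaged at least 10 normalized counts and SOX10 was at 0 in the column counting either strand. That column sets aside reads shared by genes on opposite strands. In the sum of the stranded columns 9 did, SOX10 among them, and all but MLANA, TYR and DCT. The 0 therefore does not show that SOX10 RNA was absent. Among markers of other cells, the same minimum was reached by 4 of 5 keratinocyte markers (summing to 4544 to 5092 over the 6 libraries, with KRT1 at 0), 1 of 5 immune markers (PTPRC at 0) and 2 of 3 endothelial markers. All 6 fibroblast markers reached it, summing to 3788 to 5791 with the empty vector and 5290 to 6966 with overexpression. The third replicates deviated partly in the same direction in both groups: over 16692 genes their deviations from the group means correlated at 0.349 with each other. They correlated at -0.137 to -0.272 with those of the other group's replicates 1 and 2. Deviations within a group sum to 0, so these negative values follow largely from the positive one and add little to it. Values are therefore given with all 6 libraries, with a model term shared by the third replicates, and for replicates 1 and 2 alone.

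One of the 10 genes, EMD, passed the DESeq2 test at an adjusted p under 0.05, and it fell, whereas edgeR called none. In both fits 3 had an unadjusted p under 0.05, but the share of all genes at that level was not computed. Across all genes tested, 4.94% were called in either direction and 2.64% were called lower, so 1 of 10 is a count near the background. The median log2 fold change of the 10 genes was -0.0050, against 0.0027 over all genes tested. Of these, 5 had a log2 fold change above 0 and the others below.

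The sequences around the transcription start of the genes with the lowest adjusted p-values, EMD, TMPO and LBR, are printed with their motif matches marked. They come from RefSeq on GRCh38.p14, run from 250 bases before to 50 bases after the annotated start, and were found for 9 of the 10 genes (SUN1 had no entry). EMD is at chrX:154379045-154379344 (plus strand), LBR at chr1:225428772-225429071 (minus strand) and TMPO at chr12:98515323-98515622 (plus strand). Capitals mark the CCAAT box, the GC-rich GGGCGG and the AP-1-type TGANTCA on either strand, which do not overlap one another here.
EMD: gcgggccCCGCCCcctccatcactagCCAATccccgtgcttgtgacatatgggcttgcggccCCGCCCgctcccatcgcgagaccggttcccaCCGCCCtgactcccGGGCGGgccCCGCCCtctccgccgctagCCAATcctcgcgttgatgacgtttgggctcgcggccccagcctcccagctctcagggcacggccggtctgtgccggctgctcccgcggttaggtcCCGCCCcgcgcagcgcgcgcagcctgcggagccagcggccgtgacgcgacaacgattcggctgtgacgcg
LBR: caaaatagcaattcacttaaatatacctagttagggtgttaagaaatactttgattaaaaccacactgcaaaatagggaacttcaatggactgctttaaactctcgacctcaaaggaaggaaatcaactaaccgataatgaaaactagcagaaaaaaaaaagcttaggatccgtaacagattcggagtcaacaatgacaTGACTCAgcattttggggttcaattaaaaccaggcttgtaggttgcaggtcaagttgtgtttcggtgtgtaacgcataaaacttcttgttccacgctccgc
TMPO: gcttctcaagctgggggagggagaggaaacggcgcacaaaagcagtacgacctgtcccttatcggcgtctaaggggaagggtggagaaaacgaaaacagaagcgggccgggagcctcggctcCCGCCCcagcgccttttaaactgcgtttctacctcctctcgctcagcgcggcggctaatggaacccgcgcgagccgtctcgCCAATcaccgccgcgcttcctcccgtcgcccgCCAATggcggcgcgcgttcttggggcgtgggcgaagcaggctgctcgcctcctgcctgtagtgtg

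The EMD window had a GC content of 73.3% and held 2 CCAAT and 6 GGGCGG matches. The TMPO window, at 65.0% GC, held 2 CCAAT matches and 1 GGGCGG match. The LBR window, at 38.3% GC, held neither and had 1 match to TGANTCA. Among 35116 RefSeq promoter windows of the same length, 34.6% held CCAAT, 45.0% held GGGCGG and 7.71% held TGANTCA. Another motif searched, TTTNGCGC of the E2F type, was in 1.79% of windows and in none of the 20 windows of these genes. A match is a description of letters and not evidence that a factor binds.

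LMNA (ENSG00000160789, chr1:156082573-156140081, plus strand) was by far the most abundant of the 10 genes and took between 0.149% and 0.203% of all assigned reads. It read 101797, 99830 and 77830 normalized counts with the empty vector and 78146, 86177 and 77133 with overexpression. The means were 93152 ± 13306 and 80485 ± 4955 (SD, n = 3 each), and the log2 fold change was -0.21 (SE 0.13, 95% interval -0.47 to 0.05, DESeq2 adjusted p = 0.506). The groups overlapped because the third empty vector library lay below all but 1 of the overexpression libraries. Between the third replicates the log2 difference was -0.01, and between replicates 1 and 2 it was -0.30. Without the third replicates the difference passed the test (log2 fold change -0.29, adjusted p = 4.06e-05), as it did with the third-replicate term (-0.20, adjusted p = 0.0263). Counts per gene do not separate lamin A from lamin C.

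LMNB1 (chr5:126776623-126837020, plus strand), the B-type lamin known to be lost in senescent cells, read 5627, 5789 and 4493 with the empty vector and 5996, 6880 and 5589 with overexpression. Its log2 fold change was 0.21 (SE 0.14, interval -0.06 to 0.49, adjusted p = 0.533), and the groups overlapped through the third overexpression library alone. Within each replicate number the overexpression library was the higher one. The third-replicate term gave 0.22 and passed the test (adjusted p = 0.0169), whereas replicates 1 and 2 alone gave 0.17 and did not (adjusted p = 0.107). LMNB2 (chr19:2427638-2456959, minus strand) read 6918, 6965 and 4473 against 5845, 6911 and 5317. The overexpression values lay inside the empty vector range, and the log2 fold change of -0.02 had an interval from -0.38 to 0.33, so changes down to 0.768-fold or up to 1.26-fold were not resolved.

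**Figure D1:**
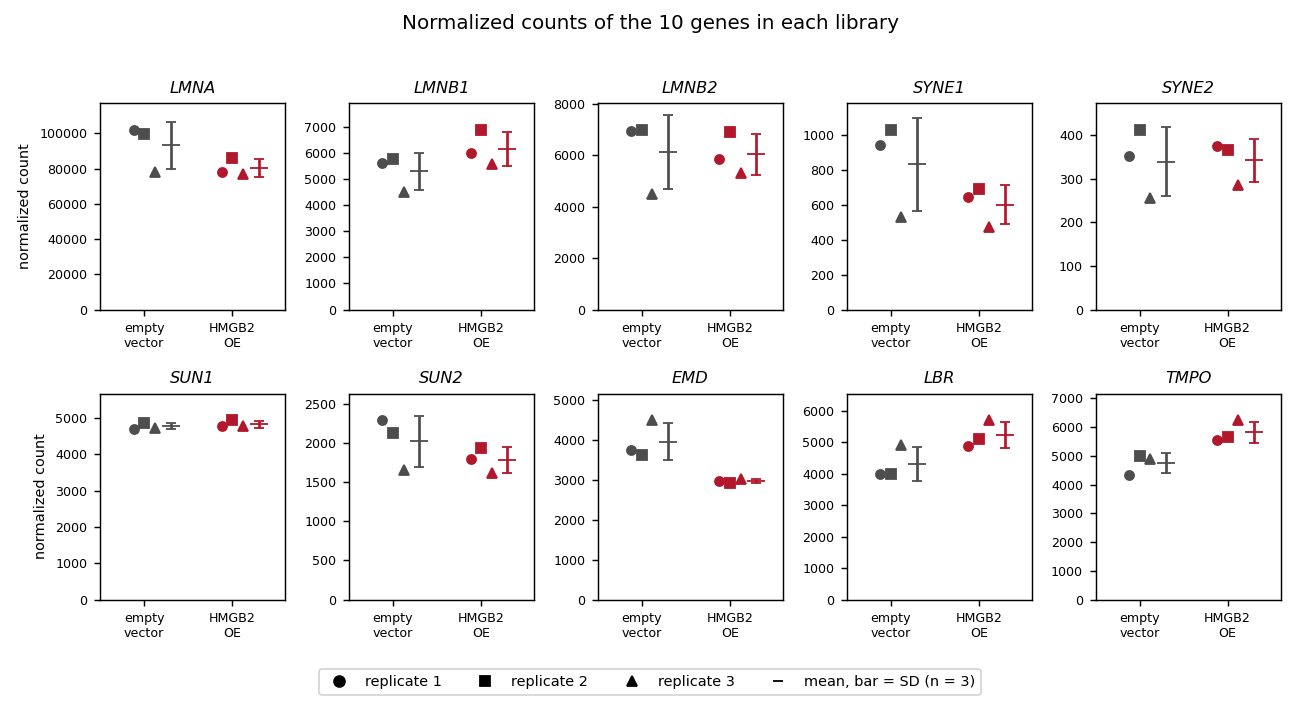
Normalized counts (vertical axes, starting at 0) of each gene in the 3 empty vector libraries (grey) and the 3 HMGB2 overexpression libraries (red), with replicates 1, 2 and 3 as circles, squares and triangles and the mean ± SD beside them. EMD and TMPO are the genes whose groups do not overlap, and the third replicate of each group is the lowest point of its group for the lamins, SYNE1, SYNE2 and SUN2.

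The balance of A-type to B-type lamins separated the groups where the single lamins did not. The ratio of LMNA to LMNB1 plus LMNB2, in normalized counts per kilobase of exon, was 4.42, 4.25 and 4.63 with the empty vector and 3.51, 3.33 and 3.75 with overexpression. Every overexpression library lay below every empty vector library, the third pair included, and the mean ratio fell from 4.43 ± 0.19 to 3.53 ± 0.21, or to 0.797 of its value. The longest transcript as the length gave mean ratios of 9.1 and 7.28, a fold of 0.800, so the level of the ratio depends on the length used. The sum of the stranded columns gave a fold of 0.797. The ratio is a description of 3 genes and was given no test, and how often ratios of other genes separate the groups was not computed. Both lamin types were lower in the third replicates than in the others.

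The nesprin genes are among the longest in the genome and had the lowest levels. SYNE1 (nesprin-1, chr6:152121687-152637801, minus strand) read 941, 1027 and 528 with the empty vector and 644, 689 and 472 with overexpression. Its difference had the largest size of the 10, a log2 fold change of -0.47, but also the largest SE (0.24; interval -0.94 to 0.0035, adjusted p = 0.356). The third empty vector library, at 528, lay below the first and second overexpression libraries. SYNE1 passed the test with the third-replicate term (-0.44, adjusted p = 0.00178) and in replicates 1 and 2 alone (-0.56, adjusted p = 7.88e-05), and within the third pair the difference was -0.16. SYNE2 (nesprin-2, chr14:63761899-64226433, plus strand) read 351, 411 and 255 against 376, 365 and 285, with a log2 fold change of 0.01 and an interval from -0.39 to 0.42.

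The ratio of SYNE2 to SYNE1 per kilobase was 0.547, 0.588 and 0.710 with the empty vector and 0.858, 0.778 and 0.887 with overexpression. The groups did not overlap, and the mean ratio was 1.37 times as high with overexpression. This ratio was given no test either, and no share of other gene ratios stands beside it. Giant and short nesprin forms, which differ in whether they reach actin, are counted together here.

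SUN1 (chr7:816615-896435, plus strand) varied least of the 10 genes across the 6 libraries, at 4712, 4863 and 4730 with the empty vector and 4771, 4935 and 4771 with overexpression. Its coefficient of variation was 1.74% and 1.96% within the groups, and its log2 fold change of 0.02 (SE 0.09) had an interval from -0.15 to 0.19, or 0.900-fold to 1.14-fold. Of the 50-base words in its transcripts, 14.9% also occur in other genes, mainly the neighbouring GET4. SUN2 (chr22:38733290-38794143, minus strand) read 2288, 2123 and 1656 against 1791, 1938 and 1612, with a log2 fold change of -0.18 (interval -0.48 to 0.11, adjusted p = 0.676). The third empty vector library again sat among the overexpression libraries, and in replicates 1 and 2 alone SUN2 fell by 0.24 (adjusted p = 0.0461). In the column for either strand SUN2 had between 48.9% and 54.1% of its count in the sum of the stranded columns. Reads fell evenly on both strands (50.07% to 50.17% on the first). A read in a place shared with an opposite-strand gene, such as GTPBP1, therefore counts for both genes in that sum. The column for either strand sets such reads aside, and which gene they came from cannot be told. The ratio of SUN1 to SUN2 ran from 1.45 to 2.01 with the empty vector and from 1.79 to 2.09 with overexpression, and the groups overlapped. In the sum of the stranded columns the same ratio was lower, 0.778 to 1.09 and 0.913 to 1.09, so which SUN gene has the higher level depends on the column.

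EMD (chrX:154379273-154381574, plus strand), which binds lamins and the chromatin protein BAF and whose loss causes Emery-Dreifuss muscular dystrophy, read 3750, 3640 and 4495 with the empty vector. With overexpression it read 2975, 2928 and 3030. The means were 3961 ± 465 and 2978 ± 50.8, a fall to 0.752 of the empty vector level (log2 fold change -0.41, SE 0.12, interval -0.64 to -0.18, DESeq2 adjusted p = 0.0135). Every overexpression library lay below every empty vector library, and the third pair showed the larger difference, -0.57, against -0.32 for replicates 1 and 2. The call was kept with the third-replicate term (adjusted p = 1.06e-06) and in replicates 1 and 2 alone (adjusted p = 0.000251). It was lost in edgeR (adjusted p = 0.0742) and without the first empty vector library (adjusted p = 0.0814) or overexpression library 1, 2 or 3 (0.199, 0.183 and 0.112), while the log2 fold change stayed between -0.47 and -0.31 in all 14 alternatives.

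LBR (chr1:225401502-225428925, minus strand), which ties heterochromatin to B-type lamins and is also a sterol reductase, read 3999, 3978 and 4920 with the empty vector and 4888, 5104 and 5696 with overexpression. The log2 fold change of 0.28 (SE 0.13, interval 0.03 to 0.53) did not pass the test (adjusted p = 0.249), and the overlap came from 1 pair of values, 4920 and 4888. Within each replicate number LBR was higher with overexpression, by 0.21 between the third replicates. It passed the test with the third-replicate term (0.29, adjusted p = 0.000133) and in replicates 1 and 2 alone (0.32, adjusted p = 6.63e-05). The ratio of LBR to LMNA was 0.0560, 0.0568 and 0.0901 with the empty vector and 0.0892, 0.0844 and 0.105 with overexpression, and the third empty vector library fell among the overexpression libraries.

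TMPO (chr12:98515579-98550351, plus strand), whose LAP2 products bind lamins and, for the alpha form, the retinoblastoma protein, read 4350, 5009 and 4893 with the empty vector and 5561, 5672 and 6234 with overexpression. The groups did not overlap, yet the log2 difference of 0.29 (SE 0.11, interval 0.08 to 0.50) did not pass the test over all genes (adjusted p = 0.101). With the third-replicate term the adjusted p was 0.00056, and in replicates 1 and 2 alone it was 0.00754. In the column for either strand TMPO had between 62.6% and 68.2% of its count in the sum of the stranded columns, because of the antisense TMPO-AS1. That sum counts the shared reads for both genes and gave 0.25 (adjusted p = 0.178). EMD and TMPO were the 2 of 10 genes whose groups did not overlap, beside 22.8% of the 16692 genes that averaged at least 10 normalized counts.

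**Figure D2:**
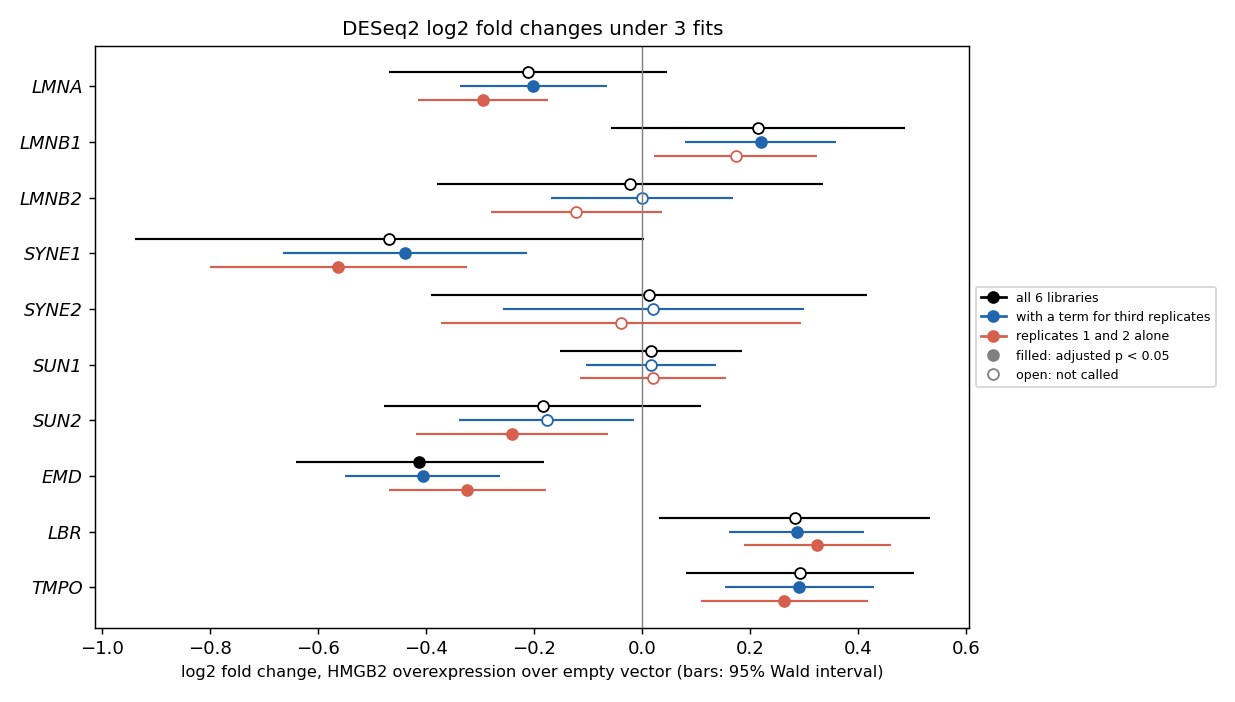
DESeq2 log2 fold change of each gene (horizontal axis, overexpression over empty vector) with its 95% interval, from all 6 libraries (black), with a term for the third replicates (blue) and from replicates 1 and 2 alone (red). Filled points passed an adjusted p under 0.05: EMD under all 3 fits, and LMNA, SYNE1, LBR and TMPO under both of the others, LMNB1 with the term alone and SUN2 in replicates 1 and 2 alone.

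With the third-replicate term, 6 of the 10 genes were called, LMNA, SYNE1 and EMD lower and LMNB1, LBR and TMPO higher, beside 17.3% of all genes tested under that fit. In replicates 1 and 2 alone, 6 were called beside 17.4% of genes, with SUN2 in place of LMNB1. In both groups 7 of the 10 genes were lower in the third replicate than in the mean of replicates 1 and 2, and EMD, LBR and TMPO were higher. Of the 16692 genes that averaged at least 10 normalized counts, 37.3% were lower in both groups and 37.9% were higher. The third overexpression library had 10.6% multimapped reads, against 2.58% to 4.89% in the other libraries, while the third empty vector library had 3.96%. The labels name no batch for the third replicates, and the cause of their deviation was not tested.

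Per kilobase of exon, the order of levels with the empty vector ran from LMNA (11400 normalized counts per kilobase) through EMD (1990), LMNB1 (1460), LMNB2 (1130), LBR (753), TMPO (559), SUN1 (402) and SUN2 (242) to SYNE1 (17.5) and SYNE2 (10.5). The ranges over libraries of the neighbours LMNB1 and LMNB2, LMNB2 and LBR, and SYNE1 and SYNE2 overlapped. Within a library, LMNB1 lay above LMNB2 and SYNE1 above SYNE2 in 6 of 6 libraries, whereas LMNB2 lay above LBR in 4 of 6. With overexpression LMNB1 (1690) stood above EMD (1490), but by the longest transcript EMD stayed above LMNB1, at 2320 against 1770. LMNA led under both measures of length. The sum of the stranded columns put SUN2 above SUN1 and TMPO above LBR. That sum counts reads in places shared by opposite-strand genes for both genes, so neither order was settled.

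**Figure D3:**
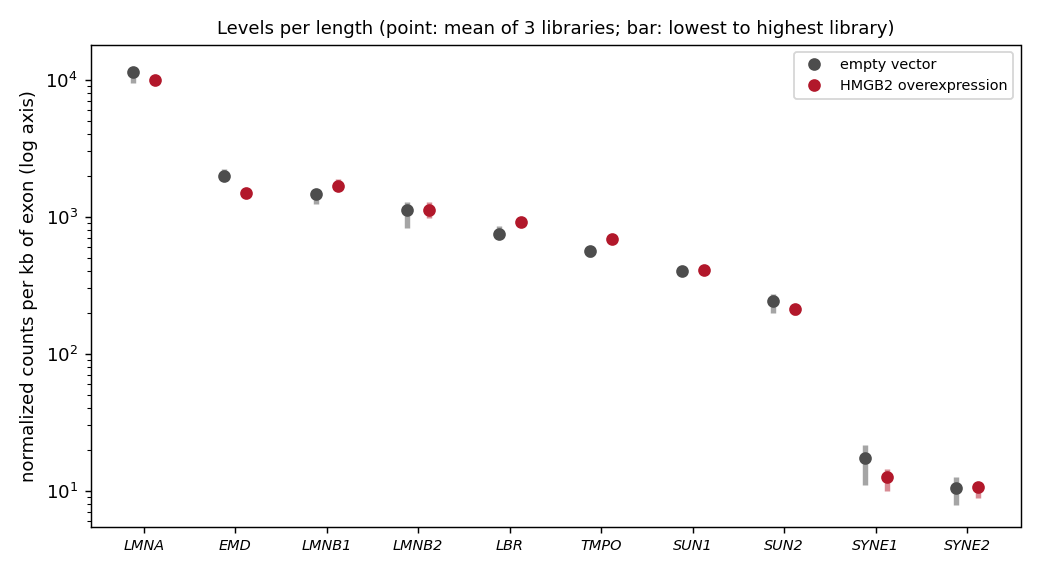
Level of each gene in normalized counts per kilobase of exon (logarithmic vertical axis), ordered by the empty vector mean; points are means of 3 libraries and bars run from the lowest to the highest library. LMNA sits near 11400 and 9890 in the 2 groups, and the nesprin genes at 10.5 to 17.5.

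**Figure D4:**
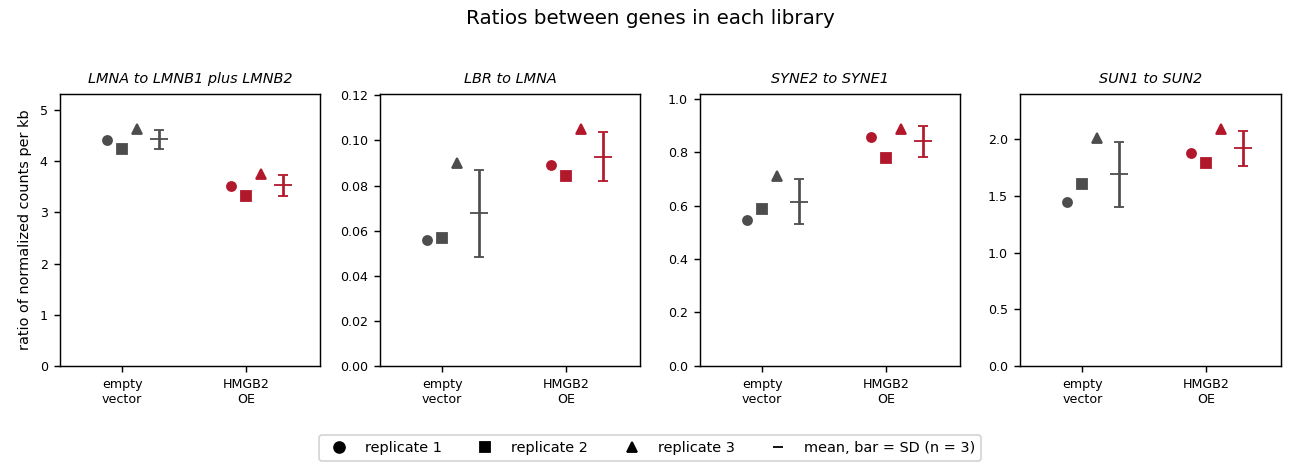
Ratios between genes in each library, from normalized counts per kilobase (vertical axes, starting at 0), with replicates as circles, squares and triangles and the mean ± SD beside them. The LMNA to B-type lamin ratio and the SYNE2 to SYNE1 ratio separate the groups, while LBR to LMNA and SUN1 to SUN2 overlap; with the stranded sum SUN1 to SUN2 is 0.778 to 1.09.

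Other genes of the nuclear envelope were read from 5 lists holding 80 genes, of which 77 were tested, and 21 genes of S phase and mitosis from another list. DESeq2 and edgeR called none of the envelope genes (3 had an unadjusted p under 0.05 in each) and none of the S phase and mitosis genes (1 in each). The share of all genes at that unadjusted level was not computed. The median log2 fold changes were 0.0032 for 15 tested LINC complex partners, 0.054 for 15 inner membrane and LEM proteins and 0.083 for 6 lamin processing enzymes. They were 0.011 for 32 nuclear pore genes, 0.074 for 11 envelope repair genes and 0.092 for 21 genes of S phase and mitosis, against 0.0027 over all genes tested.

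With the third-replicate term 9 of 74 envelope genes tested were called, 6 higher and 3 lower, beside the 17.3% of all genes under that fit. The following were picked after their values were seen. LEMD2, a LEM protein like emerin that also serves in envelope repair, fell (-0.32, adjusted p = 0.00103). CBX3, a heterochromatin protein of the HP1 family that LBR binds, rose (0.26, adjusted p = 0.000274), as did ICMT, which methylates the processed end of lamins (0.22, adjusted p = 0.00268).

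The same fit, in which LMNB1, LBR and TMPO were called higher, also called 8 of 21 genes of S phase and mitosis higher and 1 lower, beside 8.71% of all genes tested called higher and 8.61% lower. Those higher included PCNA, the DNA polymerase clamp (0.36), and BUB1, a spindle checkpoint kinase (0.30), while the helicase subunit MCM7 fell (-0.18). Summed over the list, the level ran from 149876 to 166722 with the empty vector and from 150769 to 171191 with overexpression, so the groups overlapped. The part of proliferation in the values of LMNB1, LBR and TMPO was not tested.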

How the data were processed

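Poly(A)-selected RNA of 6 libraries was analysed. The authors trimmed reads with Trimmomatic, aligned them with STAR to GRCh38 and deposited raw read counts per gene. The STAR version and annotation release are not given in the sources used here. The column counting either strand was used, in which reads shared by overlapping genes, on opposite strands or the same strand, are set aside as ambiguous (10.7 to 11.4% of reads). Symbols and coordinates came from GENCODE 44 (57532 of 58302 IDs matched). Summary lines were left out.

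Groups came from the labelled genotype. Counts were tested with DESeq2 1.42.0 (R 4.3.3, Wald test, default parameters, as in the study's methods), with Benjamini-Hochberg adjustment over all genes and a threshold of 0.05. Intervals are 95% Wald intervals. edgeR 4.0.16, other scaling, filters, columns, replicate terms and left-out libraries were alternatives. The fit was tested on simulated counts with the same dispersion (extra spread between libraries) for all genes and no deviation shared by replicates. That test therefore says nothing about how the fit handles the third replicates. Levels between genes are normalized counts per kilobase of merged exons. The members, lists and alternatives were chosen with earlier results of these data known. To be named were the 10 genes, HMGB2, list genes called with all libraries (at most 4 per direction, mean of 50 or more), and for LMNA and SYNE2 the 3 genes of most similar pattern. No list gene was called in that fit. The list genes named from the fit with the third-replicate term were picked after their values were seen.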

Additional observations from a re-analysis of the deposited data

How the results depend on the processing

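The rise of HMGB2 kept its call under all 14 alternatives, and the 4 ratios kept their direction in every setting run. Of the log2 fold changes of the 10 genes under alternatives, 107 kept direction and side of the threshold, 19 newly passed it, 5 (all EMD) no longer did and 9 changed sign. Genes called were 432 higher and 498 lower of 18836 with all libraries, 215 and 255 in edgeR, 886 and 940 with the replicate block, 1374 and 1359 with the third-replicate term, and 1203 and 1418 in replicates 1 and 2 alone. With single libraries left out they ran from 155 to 1334 higher and from 208 to 1520 lower, the highest without empty vector replicate 3. Of the 10 genes, 0 were called in edgeR, beside 470 of 16754 genes tested. At an unadjusted p under 0.05 edgeR had 3 of the 10, but the share of all genes at that level was not computed. With the replicate block 5 of the 10 genes were called, beside 1826 of 14552. With the third-replicate term 6 were called, beside 2733 of 15777, and in replicates 1 and 2 alone 6, beside 2621 of 15028. With a library left out 0 to 6 were called, the 6 without empty vector replicate 3, beside 2854 of 16062. Of 95 list genes tested, 11 were called with the block, 18 with the term and 21 in replicates 1 and 2 alone. With a library left out 0 to 22 were called, the 22 of 95 without empty vector replicate 3.

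The replicate block gave adjusted p-values of 0.0438 for LMNB1 (0.22), 0.0106 for SYNE1 (-0.44), 0.00296 for LBR (0.29), 0.00254 for TMPO (0.29) and 7.12e-05 for EMD. Whether the replicate numbers pair the libraries by design was not tested. Same-number deviations correlated at 0.091, 0.142 and 0.349 over 16692 genes, and not every library correlated best with its own number.

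The third-replicate term gave log2 fold changes of -0.20 for LMNA, 0.22 for LMNB1, 0.00018 for LMNB2, -0.44 for SYNE1, 0.29 for LBR and 0.29 for TMPO. Replicates 1 and 2 alone gave -0.29 for LMNA, -0.56 for SYNE1, -0.039 for SYNE2, -0.24 for SUN2, 0.32 for LBR and 0.26 for TMPO. EMD gave -0.41 in edgeR. With single libraries left out, the values ran from -0.32 to -0.14 for LMNA, 0.11 to 0.28 for LMNB1 (lowest without empty vector replicate 3, and 0.13 without overexpression replicate 2), -0.20 to 0.079 for LMNB2, -0.71 to -0.29 for SYNE1, -0.15 to 0.17 for SYNE2, -0.00072 to 0.029 for SUN1, -0.31 to -0.089 for SUN2, -0.47 to -0.31 for EMD, 0.22 to 0.39 for LBR and 0.23 to 0.33 for TMPO, so the sign of LMNB2, SYNE2 and SUN1 was not fixed. Without empty vector replicate 3, LMNA (adjusted p = 0.00179), SYNE1 (0.000126), SUN2 (0.031), LBR (0.000733) and TMPO (0.0116) passed the test. The cause was not tested. SUN2 and TMPO kept the smallest share of their count in the sum of the stranded columns. That share does not see reads set aside between genes on the same strand, and SUN1 shares 15.5% of its exon bases with GET4 in that way.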

Other observations

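By the root mean square difference of centred log2 normalized counts over the 6 libraries, the genes with the pattern most like LMNA among 9101 were MYO1C (0.0186), a myosin, IK (0.0242), a splicing factor, and EZR (0.0252), which links actin to the plasma membrane. Each was lower in the third empty vector library than in the others of its group, and none was called (DESeq2 adjusted p of 0.495, 0.578 and 0.65). For SYNE2, among 9102 genes, they were PABPN1 (0.0282), a poly(A)-binding protein, PTPN13 (0.0344), a tyrosine phosphatase, and REEP2 (0.0381). These are descriptions over 6 libraries, with no test.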
